A study of Caenorhabditis elegans with 12 samples.

Results

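The glutathione peroxidase genes gpx-1 to gpx-8 and the genes of glutathione synthesis, gcs-1 and gss-1, were followed in Caenorhabditis elegans larvae fed polyunsaturated fatty acids. These 10 genes, of 25478 on the array, were taken by gene symbol as a set linked to defence against lipid peroxides. Each had exactly 1 probe set, and gpx-8 is annotated as a pseudogene. Wild-type N2 worms reached the L4 stage at 20 °C on nematode growth medium (NGM) with Escherichia coli OP50 as food. The medium of the LNA group held linoleic acid, that of the GLA group gamma-linolenic acid and that of the DGLA group dihomo-gamma-linolenic acid, each at 1000 µM, and the control medium held no added acid. Plates held about 2000 larvae each. All 4 groups, control included, had the ethanol vehicle at 1% v/v, and each had n = 3 biological replicates with 1 array each, 12 arrays in all. Whole larvae were extracted, so fewer cells of a type and less RNA per cell cannot be told apart. Values are the authors' log2 signals per probe set.

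Glutathione peroxidases reduce hydrogen peroxide and lipid hydroperoxides to water and alcohols, and oxidise glutathione as they do so. Acyl chains with several double bonds are the lipids most readily peroxidised, and in mammals the enzyme GPX4, which repairs peroxidised membrane phospholipids, guards cells from ferroptosis, an iron-dependent form of cell death. The worm genes are numbered independently of the mammalian ones, and the worm enzymes carry a cysteine where mammalian GPX4 has selenocysteine. Dietary DGLA is known to kill germ cells of this worm by ferroptosis. GLA has a double bond more than LNA, and DGLA is GLA with a longer chain.

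Arrays LNA 2 and LNA 3 stood apart from the other 10. Their scores on the first principal component, which held 23.1% of the variance, were 41.95 and 35.68, while the others lay between -18.02 and 3.64, LNA 1 among them. No 2 arrays held identical values. Markers of intestine, hypodermis, germline, oocytes, body wall muscle, pharynx and neurons all lay above the median of every array, and so did 6 of 7 sperm markers, the exception being spe-38. The body wall muscle list averaged 10.81 to 11.64 in LNA larvae and 11.46 to 11.61 in control larvae (log2 signal, 5 genes), and the pharynx list 7.89 to 8.62 and 8.42 to 8.49 (5 genes). The low ends in LNA larvae were LNA 2 in both lists. The intestine list averaged 9.18 to 9.33 in LNA larvae and 9.11 to 9.16 in control larvae (7 genes). With few arrays per group, their number limits the precision of every value below.

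No member passed the test for any difference among the 4 groups, nor any of the 6 comparisons between them. The test was limma's moderated test with adjustment over all 29317 probe sets, and a probe set was called at an adjusted p under 0.05. Among all probe sets 0.467% passed the test over the 4 groups (137 probe sets). At an unadjusted limma p under 0.05 that test held the members gpx-1, gpx-2 and gpx-7, against 8.7% of all probe sets. In limma their adjusted p was 0.404, 0.472 and 0.566. The members fell into 2 equal sets by brightness. The signals of gpx-1, gpx-2, gpx-5, gcs-1 and gss-1 lay above the median of every array, and those of gpx-3, gpx-4, gpx-6, gpx-7 and gpx-8 lay below it on all 12.

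**Figure D1:**
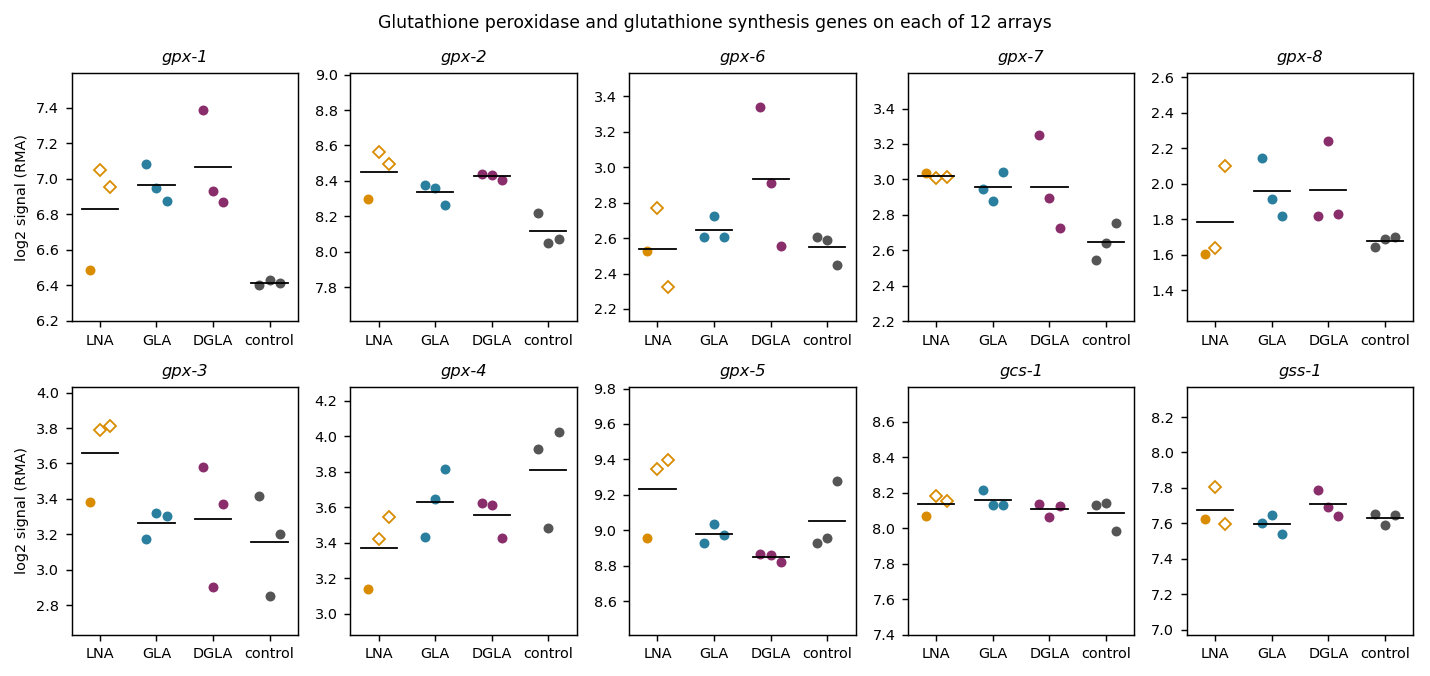
Log2 signal (RMA) of each of the 10 genes, 1 panel a gene, in LNA, GLA, DGLA and control larvae, with a point per array, a bar at the group mean and open diamonds for LNA 2 and LNA 3. All panels span the same width of log2 signal. All 9 acid arrays lie above the 3 control arrays for gpx-1 and gpx-2, whereas the groups lie close together for gcs-1 and gss-1.

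The worm homologs of mammalian GPX4, the phospholipid hydroperoxide peroxidases, are gpx-1, gpx-2, gpx-6 and gpx-7. The first of these, gpx-1 (F26E4.12), read 6.49, 7.05 and 6.95 in LNA larvae, 7.08, 6.94 and 6.87 in GLA larvae, 7.39, 6.93 and 6.87 in DGLA larvae, and 6.40, 6.43 and 6.41 in control larvae. The control arrays were nearly level, every acid array was above them, and LNA 1 was barely so. The estimated difference was 0.41 for LNA (SE 0.161, adjusted p = 0.486), 0.55 for GLA (SE 0.161, adjusted p = 0.547) and 0.65 for DGLA (SE 0.161, adjusted p = 0.195). As a fold, DGLA over control was 1.57, and the 95% interval of the log2 difference, not adjusted for the number of genes as with all intervals here, was 0.30 to 1.00. At that error a difference of 0.84 would have been needed for a call with DGLA, more than the one measured. Without LNA 2 and LNA 3, which here and below leaves LNA 1 as the only LNA array, the difference for LNA was 0.07.

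Its relative gpx-2 (R05H10.5) read 8.30, 8.56 and 8.50 with LNA, 8.38, 8.36 and 8.27 with GLA, 8.44, 8.43 and 8.40 with DGLA, and 8.22, 8.05 and 8.07 in control larvae. Here too the acid arrays were all above the control arrays, by narrow margins for LNA 1 and GLA 3. The differences were 0.33 for LNA (SE 0.0930, adjusted p = 0.381), 0.22 for GLA (SE 0.0930, adjusted p = 0.899) and 0.31 for DGLA (SE 0.0930, adjusted p = 0.43). The last of these corresponds to 1.24-fold (95% interval 1.08 to 1.43). Without LNA 1, which leaves the 2 arrays that stand apart, LNA minus control was 0.41 and passed (adjusted p = 0.0335), in a fit that called 895 probe sets, and without LNA 2 and LNA 3 it was 0.18 (adjusted p = 0.786). These 2 members, gpx-1 and gpx-2, were the ones with all 9 acid arrays above all 3 control arrays, as held for 0.805% of all probe sets. The 3 comparisons share the control arrays, so they are not separate evidence.

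The dim gpx-7 (R03G5.5) lay below the lower quartile of the array on 7 arrays. It read 3.04, 3.01 and 3.01 with LNA, 2.95, 2.88 and 3.04 with GLA, 3.25, 2.89 and 2.73 with DGLA, and 2.55, 2.64 and 2.75 in control larvae. LNA and GLA arrays stood clear of control arrays, while DGLA 3 lay within them. The differences were 0.37 (adjusted p = 0.459), 0.31 (adjusted p = 0.878) and 0.31 (adjusted p = 0.762) for LNA, GLA and DGLA. Without LNA 2 and LNA 3 the difference for LNA was 0.39.

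The dimmer gpx-6 (T09A12.2) was below the lower quartile on 11 of 12 arrays. It read 2.53, 2.77 and 2.32 with LNA, 2.61, 2.73 and 2.61 with GLA, 3.34, 2.91 and 2.56 with DGLA, and 2.61, 2.59 and 2.45 in control larvae. DGLA 1 and DGLA 2 were the highest arrays and DGLA 3 lay within the control range. DGLA minus control was 0.39 (SE 0.172, adjusted p = 0.858), whereas LNA minus control was -0.01 and GLA minus control 0.10.

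A second branch, gpx-3, gpx-4 and gpx-5, is related to the mammalian plasma-type glutathione peroxidase. The 2 genes gpx-3 and gpx-5 are neighbours in the RefSeq annotation (assembly WBcel235), with no other protein-coding gene between them. The bright gpx-5 (C11E4.1) read 8.96, 9.35 and 9.40 with LNA, 8.93, 9.03 and 8.97 with GLA, 8.87, 8.86 and 8.82 with DGLA, and 8.93, 8.96 and 9.28 in control larvae. LNA 2, LNA 3 and control 3 were high, and the DGLA arrays were the lowest and the most alike. Differences from control were 0.18 for LNA (adjusted p = 0.664), -0.08 for GLA (adjusted p = 0.999) and -0.20 for DGLA (adjusted p = 0.979). Without LNA 2 and LNA 3 the difference for LNA was -0.10.

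Its neighbour gpx-3 (C11E4.2), below the median of every array, read 3.38, 3.79 and 3.81 with LNA, 3.18, 3.32 and 3.30 with GLA, 3.58, 2.90 and 3.37 with DGLA, and 3.41, 2.85 and 3.20 in control larvae. As with gpx-5, LNA 2 and LNA 3 were the highest arrays. LNA minus control was 0.50 (SE 0.188, adjusted p = 0.483) and became 0.22 without them, while GLA (0.11) and DGLA (0.13) lay nearer to control. The part that the lower muscle and pharynx signals of LNA 2 and LNA 3 have in these values was not tested. Those lists were split, as LNA minus control was -0.68 in unc-54, -0.73 in myo-3, -0.44 in unc-15, -0.61 in myo-1, -0.87 in myo-2 and -0.28 in pha-4, but 0.01 in unc-27, 0.11 in pat-10 and 0.24 in both tnc-2 and tnt-4.

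Alone among the members, gpx-4 (Y94H6A.4) had an estimate below control with every acid. It read 3.14, 3.42 and 3.55 with LNA, 3.43, 3.65 and 3.82 with GLA, 3.62, 3.62 and 3.43 with DGLA, and 3.93, 3.48 and 4.02 in control larvae. Each acid overlapped the control range, through control 2. The differences were -0.44 (SE 0.159, adjusted p = 0.478), -0.18 and -0.26 for LNA, GLA and DGLA, and LNA minus control was -0.67 without LNA 2 and LNA 3.

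The eighth member, gpx-8 (F55A3.5), is a pseudogene in the RefSeq annotation and was below the lower quartile of all 12 arrays. It read 1.60, 1.64 and 2.10 with LNA, 2.14, 1.91 and 1.82 with GLA, 1.82, 2.24 and 1.83 with DGLA, and 1.65, 1.69 and 1.70 in control larvae. The GLA and DGLA arrays were all above the control arrays, with differences of 0.28 (adjusted p = 0.977) and 0.29 (adjusted p = 0.952). Neither difference passed.

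Glutathione itself is made by the products of gcs-1, the glutamate-cysteine ligase that sets the rate, and gss-1, the glutathione synthetase. Of the members gcs-1 (F37B12.2) varied least, with an SD of 0.0599 over the 12 arrays against 0.316 for gpx-1. It read 8.07, 8.18 and 8.15 with LNA, 8.21, 8.13 and 8.13 with GLA, 8.14, 8.06 and 8.12 with DGLA, and 8.13, 8.14 and 7.98 in control larvae. All groups overlapped. As folds over control its estimates were 1.03 for LNA (95% interval 0.913 to 1.17), 1.05 for GLA (0.929 to 1.19) and 1.02 for DGLA (0.896 to 1.15), with adjusted p of 0.871, 0.999 and 1.00. The highest upper limit among these unadjusted intervals was 1.19, with GLA. In worms gcs-1 is a standard target of the stress factor SKN-1, whose activity was not tested.

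The partner gss-1 (M176.2) read 7.63, 7.81 and 7.59 with LNA, 7.60, 7.64 and 7.54 with GLA, 7.79, 7.69 and 7.64 with DGLA, and 7.66, 7.59 and 7.65 in control larvae. Again each acid overlapped control. The folds were 1.03 (0.903 to 1.18), 0.975 (0.854 to 1.11) and 1.05 (0.924 to 1.20) for LNA, GLA and DGLA. Adjusted p was 0.894, 0.999 and 1.00.

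**Figure D2:**
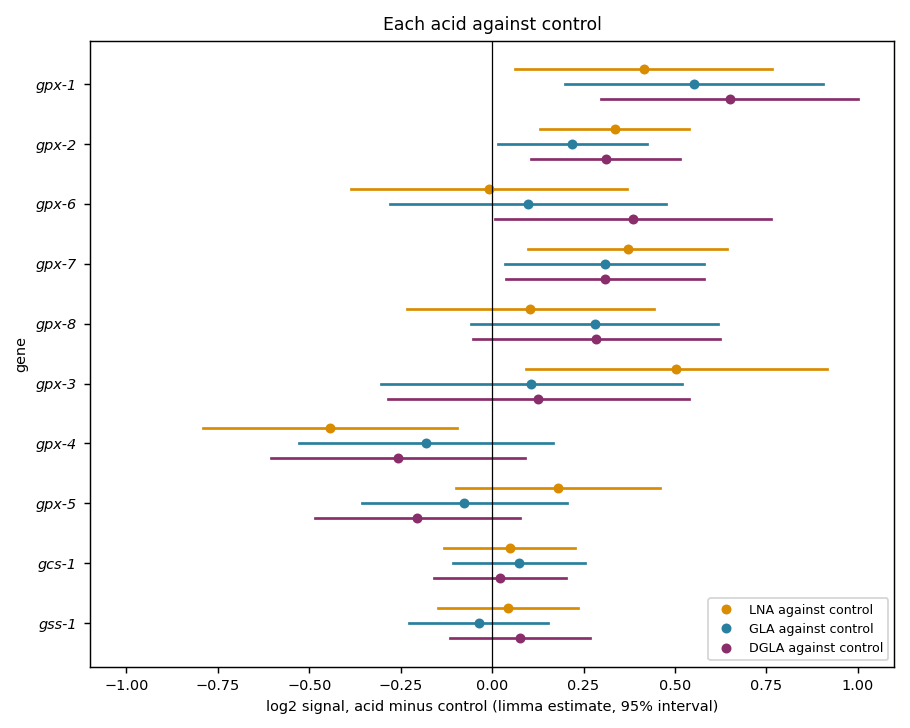
Log2 difference of each acid from control for the 10 genes, as the limma estimate (point) with its 95% interval (line), LNA in orange, GLA in blue and DGLA in purple. The intervals of gpx-1, gpx-2 and gpx-7 lie above 0 for all 3 acids before any adjustment, those of gcs-1 and gss-1 span 0 and are short, and no difference passed after adjustment over all probe sets.

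Counted together, 0 of 10 members passed with LNA, where 0.058% of all probe sets did (17 probe sets). At an unadjusted p under 0.05 there were 5 members, against 9.6% of all probe sets, with gpx-1, gpx-2, gpx-3 and gpx-7 above control and gpx-4 below. With GLA 0 members passed (0.229% of all probe sets), and 3 had an unadjusted p under 0.05 (5.46% of all), namely gpx-1, gpx-2 and gpx-7, all above control. With DGLA 0 members passed (0.498% of all), and 4 had an unadjusted p under 0.05 (5.69% of all), namely gpx-1, gpx-2, gpx-6 and gpx-7, all above control. The median log2 difference of the 10 members was 0.14 with LNA, 0.10 with GLA and 0.21 with DGLA, beside 0.02, -0.0023 and -0.0055 over all probe sets. The median with LNA rests on LNA 2 and LNA 3, and without them it was -0.01, with 4 of 10 members above 0.

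Members were also counted by whether the groups overlapped. With LNA 3 members lay wholly above control (gpx-1, gpx-2 and gpx-7), as did 8.06% of all probe sets, and 0 wholly below (3.9% of all). With GLA 4 lay wholly above (gpx-1, gpx-2, gpx-7 and gpx-8, 5.56% of all) and 0 below (6.17% of all). With DGLA 3 lay wholly above (gpx-1, gpx-2 and gpx-8, 5.3% of all), and gpx-5 lay below (5.45% of all). The mean of the 3 acids against control, a comparison chosen after the values were seen, called 0 members and 0.304% of all probe sets. There gpx-1 differed by 0.54 (SE 0.131, adjusted p = 0.241) and gpx-2 by 0.29 (SE 0.0759, adjusted p = 0.313), and without LNA 2 and LNA 3 by 0.43 and 0.24.

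All 3 acids were given at the same concentration and stage, so they can be set against each other. For GLA against LNA, which differ by a double bond, 0 members passed (0.0614% of all probe sets) and 0 had an unadjusted p under 0.05 (11% of all). The lowest adjusted p was that of gpx-3 (-0.40, 95% interval -0.81 to 0.01, adjusted p = 0.464), whose GLA arrays were all below its LNA arrays, as held for 10.1% of all probe sets. No member lay wholly above (4.78% of all). GLA minus LNA was 0.14 for gpx-1 (95% interval -0.21 to 0.49) and -0.12 for gpx-2 (-0.32 to 0.09). Without LNA 2 and LNA 3 these became 0.48 (adjusted p = 0.555) and 0.04, and without LNA 1 they became -0.03 and -0.19.

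For DGLA against GLA, which differ in chain length, 0 members passed (0.075% of all probe sets) and again 0 had an unadjusted p under 0.05 (5.15% of all). DGLA minus GLA was 0.10 for gpx-1 (95% interval -0.25 to 0.45), 0.09 for gpx-2 (-0.11 to 0.29), 0.29 for gpx-6 (-0.09 to 0.66) and -0.13 for gpx-5 (-0.41 to 0.15). The groups did not overlap in gpx-2, higher with DGLA (5.54% of all probe sets), and gpx-5, lower with DGLA (5.55% of all). The intervals of gpx-1, gpx-3, gpx-4, gpx-7 and gpx-8 reached beyond 0.25 on both sides, so they do not exclude differences of that size. The difference needed for a call ran from 0.54 in gcs-1 to 1.24 in gpx-3. A difference of 0.25 was thus too small for a call in any member.

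For DGLA against LNA 0 members passed (0.317% of all probe sets). Of the 2 with an unadjusted p under 0.05 (11.8% of all), gpx-5 was lower with DGLA (-0.38, 95% interval -0.66 to -0.10, adjusted p = 0.319), and gpx-6 was higher (0.39, 0.02 to 0.77, adjusted p = 0.403). The DGLA arrays of gpx-5 lay wholly below the LNA arrays, which 8.45% of all probe sets also did, and no member lay wholly above (4.33% of all). Without LNA 1 the difference of gpx-5 was -0.52 and passed (adjusted p = 0.0237), in a fit that called 1359 probe sets, and without LNA 2 and LNA 3 it was -0.11 (adjusted p = 0.97). For the synthesis genes DGLA minus LNA was -0.03 in gcs-1 (-0.21 to 0.15) and 0.03 in gss-1 (-0.16 to 0.22).

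**Figure D3:**
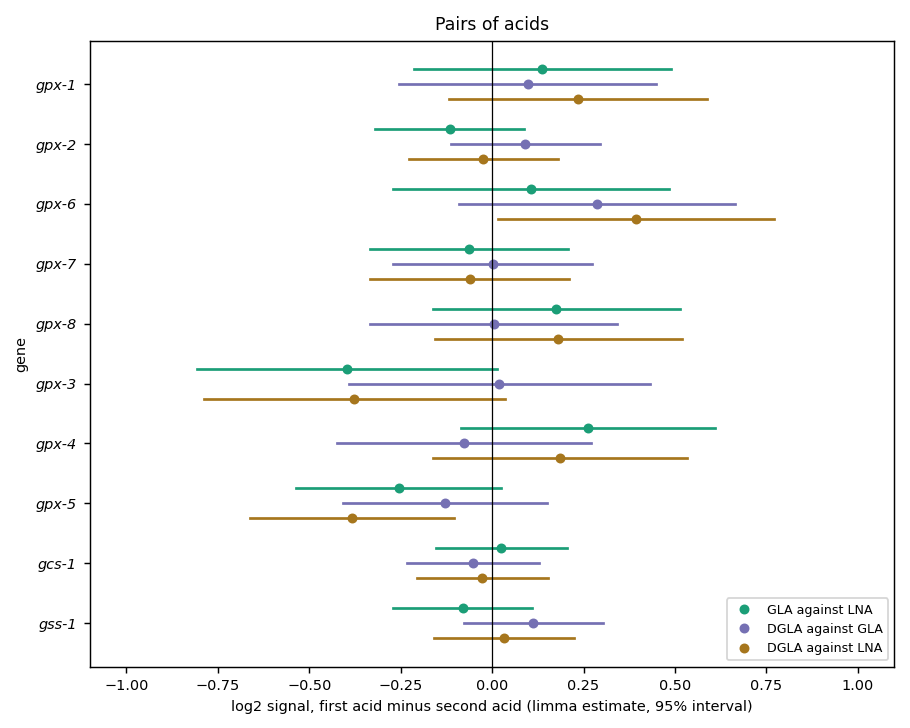
Log2 difference between acids for the 10 genes, as the limma estimate (point) with its 95% interval (line), for GLA minus LNA, DGLA minus GLA and DGLA minus LNA. All intervals but those of gpx-5 and gpx-6 for DGLA minus LNA span 0, and no difference passed after adjustment.

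By group mean gpx-1 ran in the order DGLA, GLA, LNA, control from high to low, and gpx-2 in the order LNA, DGLA, GLA, control. For gpx-5 the order was LNA, control, GLA, DGLA, and gpx-4 was highest in control larvae and lowest with LNA. No neighbours in any of these orders differed past the threshold.

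The 5 genes whose values over the 12 arrays were most like those of gpx-1, the member with the smallest p over the 4 groups, were taken among 12784 genes brighter than the median probe set. They were C39E9.8, T20B3.1, K01A2.5, F43H9.4 and D1054.8, with Pearson correlations of 0.935, 0.934, 0.928, 0.925 and 0.924. These are descriptions over 12 arrays that all genes share, and the search itself picks high values. As a description of genes picked for this pattern, DGLA minus control was 0.31, 1.14, 0.15, 0.58 and 0.58 in the same order. In limma's test T20B3.1 (adjusted p = 0.0205) and F43H9.4 (adjusted p = 0.0268) passed. C39E9.8, K01A2.5 and D1054.8 did not (adjusted p = 0.661, 0.979 and 0.156).

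The enzymes around the members were read from 51 measured genes of 52 listed. The lists covered glutathione reduction and thiol transfer (7 genes), cysteine supply and use (12), NADPH supply (6), the thioredoxin system (8), regulators of SKN-1 (7 of 8 measured), export of glutathione conjugates by mrp transporters (8) and ether lipid synthesis (3). Calls fell in the cysteine and ether lipid lists, and the other lists had 0 calls in all 6 comparisons. Glutathione reductase, gsr-1, which returns oxidised glutathione to its reduced form, differed from control by 0.08 with LNA, 0.05 with GLA and 0.04 with DGLA (adjusted p = 0.825, 0.999 and 1.00). The thioredoxin reductase trxr-1, the worm's selenoprotein, differed by -0.01, 0.08 and 0.03. The factor SKN-1, which drives gcs-1, is encoded by skn-1 (-0.14, -0.08 and -0.0012), and its repressor by wdr-23 (0.0040, -0.03 and -0.05). None of these passed in any comparison. With LNA 0 of the 51 genes passed limma's test, and at an unadjusted p under 0.05 10 were higher and 4 lower than control, against 5.24% and 4.36% of all probe sets. With GLA 0 passed, and at that unadjusted threshold 5 were higher and 1 lower (2.64% and 2.82% of all probe sets).

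With DGLA against control 1 listed gene rose, as did 0.3% of all probe sets, and 1 fell (0.198% of all). The fall was in cysl-2, a cysteine synthase family gene whose product detoxifies cyanide with cysteine. It read 7.10, 7.41 and 7.37 with LNA, 6.87, 6.95 and 6.88 with GLA, 6.31, 6.22 and 6.21 with DGLA, and 6.95, 6.98 and 6.82 in control larvae. The LNA arrays were all above the control arrays and the DGLA arrays all below them, while GLA overlapped control. Of all probe sets 8.06% lay wholly above control with LNA and 5.45% wholly below it with DGLA. LNA minus control was 0.38 and did not pass limma's test (SE 0.0983, adjusted p = 0.348). DGLA minus control was -0.67 (SE 0.0983, adjusted p = 0.00865). The call ended without control 1, control 2, DGLA 2 or DGLA 3 (adjusted p 0.0512 to 0.0546) and on the 6 arrays alone (0.0536).

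The rise was in ads-1, the alkyl-dihydroxyacetonephosphate synthase of ether lipid synthesis in peroxisomes. It read 8.27, 8.49 and 8.29 with LNA, 8.41, 8.25 and 8.36 with GLA, 8.56, 8.47 and 8.49 with DGLA, and 7.94, 8.02 and 7.98 in control larvae. Every acid array was thus above control, as held for 0.805% of all probe sets. DGLA minus control was 0.53 (SE 0.0890, adjusted p = 0.0239), beside 0.37 for LNA (adjusted p = 0.321) and 0.36 for GLA (adjusted p = 0.302). DGLA minus LNA was 0.16 and did not pass limma's test (adjusted p = 0.509). The mean of the 3 acids against control, chosen after the values were seen, was 0.42 for ads-1 (limma's test, adjusted p = 0.0377). Without LNA 2 and LNA 3 that mean difference was 0.39. The call ended without any 1 control or DGLA array (adjusted p 0.0748 to 0.107), on the 6 arrays alone (0.0982) and with the replicate number as a block (0.0781). Without LNA 1 the LNA difference of ads-1 (0.41, adjusted p = 0.0477) and that of cysl-2 (0.47, adjusted p = 0.0162) passed too.

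Between acids, DGLA against LNA called 2 of the 51 genes lower (0.198% of all probe sets) and 0 higher, both of the 12 genes of cysteine supply and use. In cysl-2 the difference was -1.05 (SE 0.0983, adjusted p = 0.000584), and the call held under all 21 alternatives. In cth-1, a cystathionine gamma-lyase, which releases cysteine from cystathionine, the difference was -1.04 (SE 0.128, adjusted p = 0.00466). That gene read 7.17, 7.33 and 7.50 with LNA, 6.66, 6.86 and 6.95 with GLA, 6.39, 6.39 and 6.09 with DGLA, and 6.80, 7.07 and 6.87 in control larvae. Its DGLA arrays lay wholly below, and its LNA arrays wholly above, the control arrays. In limma's test neither the rise with LNA (0.42, adjusted p = 0.436) nor the fall with DGLA (-0.62, adjusted p = 0.0761) passed against control. The brighter cth-2, from the same list, had a DGLA minus LNA of -0.05 (limma's test, adjusted p = 0.85). The call of cth-1 against LNA ended on the 6 arrays alone (adjusted p = 0.0896). It also ended without LNA 2 and LNA 3 (-0.87), which leaves LNA 1 alone in its group.

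DGLA against GLA called cysl-2 alone of the 51, lower by a difference of -0.65 (adjusted p = 0.0403), as were 0.0409% of all probe sets. That call ended without any 1 control, GLA or DGLA array, LNA 2 or LNA 3 (adjusted p 0.0506 to 0.248), and on the 6 arrays alone (0.109). GLA against LNA called 0 of the 51 in limma's test, with 3 higher and 4 lower at an unadjusted p under 0.05, near the 5.17% and 5.84% of all probe sets. Without LNA 1 cysl-2 (-0.49, adjusted p = 0.0123) and cth-1 (-0.59, adjusted p = 0.0426) passed.

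**Figure D4:**
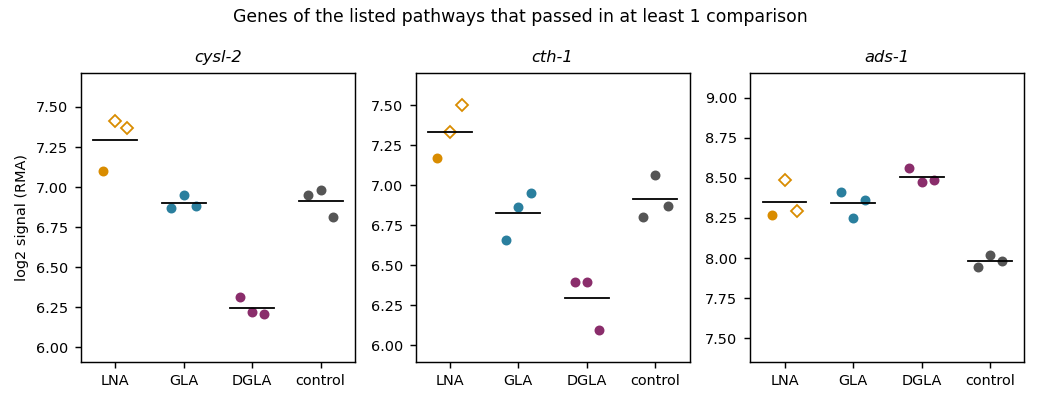
Log2 signal (RMA) of cysl-2, cth-1 and ads-1 in LNA, GLA, DGLA and control larvae, with a point per array, a bar at the group mean and open diamonds for LNA 2 and LNA 3. All panels span the same width of log2 signal. For cysl-2 and cth-1 the LNA arrays are above control and the DGLA arrays below. For ads-1 all acid arrays are above control, as held for 0.805% of all probe sets.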

How the data were processed

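Biotin-labelled cRNA of 12 samples was hybridised to Affymetrix arrays. The deposited table holds log2 signals per probe set that the authors made with RMA, per the submitters' processing notes, which also name Transcriptome Analysis Console and Affymetrix Expression Console. For versions, options and genome build, the sources used here give nothing, and no coordinates are printed. Of 29317 probe sets 25546 carry 1 gene symbol, and 25495 of those matched WBcel235 genes by identifier. A gene is its brightest such probe set.

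Group means of all 12 arrays were fitted with limma 3.58.1 (lmFit, eBayes) in R 4.3.3, with no filter and no block. The total was 11.6 degrees of freedom. Tests were two-sided, with Benjamini-Hochberg adjustment over all probe sets of a comparison. The code was tested on simulated data. The members, lists, naming rule (called list members, gsr-1, trxr-1, skn-1, wdr-23) and alternatives were chosen with earlier results of these data known. Lists were given by counts, with no set test. The labels do not state whether replicate numbers pair samples, and samples were taken as unpaired. Deviations from group means correlated over 0.1 in 3 of 18 same-numbered pairs and 4 of 36 different-numbered pairs. The highest correlations were 0.216 and 0.136, and 6 of 12 arrays deviated most like an array of their own number. These values cannot decide whether the samples were paired. No sequences were used here.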

Additional observations from a re-analysis of the deposited data

Results flagged for a closer look

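In cth-1, which supplies cysteine, and cysl-2, whose product uses it, the acids differed past the threshold in limma's test of the difference itself. Both are from the list of cysteine supply and use, whose median DGLA minus LNA was -0.0256, beside -0.0287 over all probe sets. Of its 12 genes 3 had a difference above 0. In cth-2 of that list, with means of 11.79 for DGLA and 11.84 for LNA, it was -0.05 (limma's test, adjusted p = 0.85). A change in cysteine supply as a whole was not tested. LNA arrays lay wholly above and DGLA arrays wholly below control in cth-1 and cysl-2. The rise with LNA passed in neither in the main fit, and the fall of cth-1 from control did not pass. DGLA minus LNA was -1.04 in cth-1 (adjusted p = 0.00466) and -1.05 in cysl-2 (adjusted p = 0.000584), and DGLA minus GLA was -0.654 in cysl-2 (adjusted p = 0.0403). In each of these comparisons all 3 DGLA arrays lay below all 3 arrays of the other acid. The genes were flagged by these same differences, so this adds no support. Of all probe sets 8.45% lay wholly below LNA with DGLA and 5.55% wholly below GLA. Of the 21 alternatives, the call of cysl-2 against LNA held under 21 and that of cth-1 under 19. The latter was lost on the 6 arrays alone and without LNA 2 and LNA 3, which leaves LNA 1 alone in its group. The call of cysl-2 against GLA held under 8 (lost with the replicate block, adjusted p = 0.121).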

How the results depend on the processing

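The count of members called was 0 in all 6 comparisons and in the test over 4 groups. The latter was not run on the 6 arrays alone, an alternative that holds only the 2 groups compared. Otherwise the count stayed 0 under the 21 alternatives run (leaving out each array, LNA 2 and LNA 3, the 6 arrays alone, the replicate block, quantile and cyclic loess normalization, a filter on dim probe sets, a trended robust prior, array weights, probe sets with 1 symbol), with 2 exceptions. Leaving out 1 array gave 0 to 1 for LNA against control (gpx-2) and 0 to 1 for DGLA against LNA (gpx-5), both without LNA 1. The cause was not tested. With the replicate block the count was 0 in each comparison, and the block ended the calls of ads-1 (adjusted p = 0.0781) and of cysl-2 in DGLA against GLA (0.121). The filter left out the 5 dim members. Of the 60 member differences, none of them called in the main fit, 23 changed sign under at least 1 alternative, in 44 of 1230 values. After the change none of these values exceeded 0.146 in size. Their estimates in the main fit reached 0.255 in size, that of gpx-5 in GLA against LNA. It was -0.255 there and 0.02 without LNA 2 and LNA 3. The difference of cth-1 between DGLA and control (-0.62, adjusted p = 0.0761) passed under 3 alternatives, the dim filter (0.0356), the trended prior (0.0337) and array weights (0.0298). No member has another probe set, so that alternative gave no value.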
